A study of Mus musculus with 7 samples.

Results

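The genes described here take part in, or respond to, cytokine signalling in erythroid precursors, chiefly that of stem cell factor and erythropoietin. They are the receptor genes Kit, Epor and Csf2rb, the kinase gene Jak2, the transcription factor genes Stat5a and Stat5b, and the STAT5 target genes Cish, Socs2, Socs3 and Pim1. They were taken by symbol from the probesets annotated with exactly 1 gene, and all 10 were found among the 22180 genes so measured. Where a gene had several probesets, as Cish, Socs2, Socs3 and Pim1 did with 2 each, the one with the highest mean over the 7 arrays stood for it. The cells were G1E, a mouse erythroid line without functional GATA1 whose cells stay immature. The 3 control arrays came from cells labelled wild type at Lockd, and the 4 deletion arrays from cells in which Lockd, a long non-coding RNA gene beside Cdkn1b, had been deleted with CRISPR/Cas9. Total RNA was used, the cells carried no other stated treatment, and the design text calls the samples clones without saying how many clones there were or whether each replicate was its own culture. What the p-values measure is thus the spread between these arrays, which may be partly technical. Whether a difference lies in each cell or in the mix of cells cannot be told apart in bulk RNA.

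Stem cell factor binds Kit, a receptor tyrosine kinase. Erythropoietin binds the receptor encoded by Epor, which has no kinase of its own and relies on the bound kinase JAK2 to phosphorylate STAT5. STAT5 then enters the nucleus and switches on survival genes together with inhibitors of the same pathway, among them Cish and the Socs genes, so that levels of these targets are commonly read as a sign of STAT5 activity. Transcript levels do not measure phosphorylation, and phosphorylated STAT5 was not measured here.

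The labels were first checked on the targeted gene. Lockd averaged 7.91 ± 0.12 (SD, n = 3) on control and 4.89 ± 0.48 (SD, n = 4) on deletion arrays, on the log2 scale used throughout, and Cdkn1b 9.18 and 8.03. They were the only 2 of 23521 probesets, or 0.0085%, with a Benjamini-Hochberg adjusted limma p under 0.05. On the first principal component, control replicate 2 lay far from the other arrays. All 17 measured erythroid markers lay above the median gene level, as did 4 of 8 megakaryocyte, 4 of 10 stromal and endothelial, 3 of 12 mast cell, 1 of 10 myeloid and 0 of 8 lymphoid markers.

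None of the 10 signalling genes passed the test between deletion and control cells. The number passing in limma after Benjamini-Hochberg adjustment was 0, against 0.00902% of all genes. The number at an unadjusted p under 0.05 was also 0, against 4.61% of all genes. The deletion mean was lower for 9 of the 10, Epor being the exception, while 47.8% of all genes had a lower deletion mean. All 10 lay above the median gene level, and no share was taken over genes of like level. Among the marker lists this share ran from 20% for stromal and endothelial to 82.4% for erythroid markers. The median difference of the 10, deletion minus control, was -0.07, against 0.01 over all genes. The groups did not overlap for 1 of the 10, Stat5b, and for 5.19% of all genes. The pair encoding STAT5 had the smallest p-values of the 10, at 0.0518 for Stat5a and 0.0851 for Stat5b in limma, both with an adjusted p of 0.999. All 10 had that adjusted p.

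**Figure D1:**
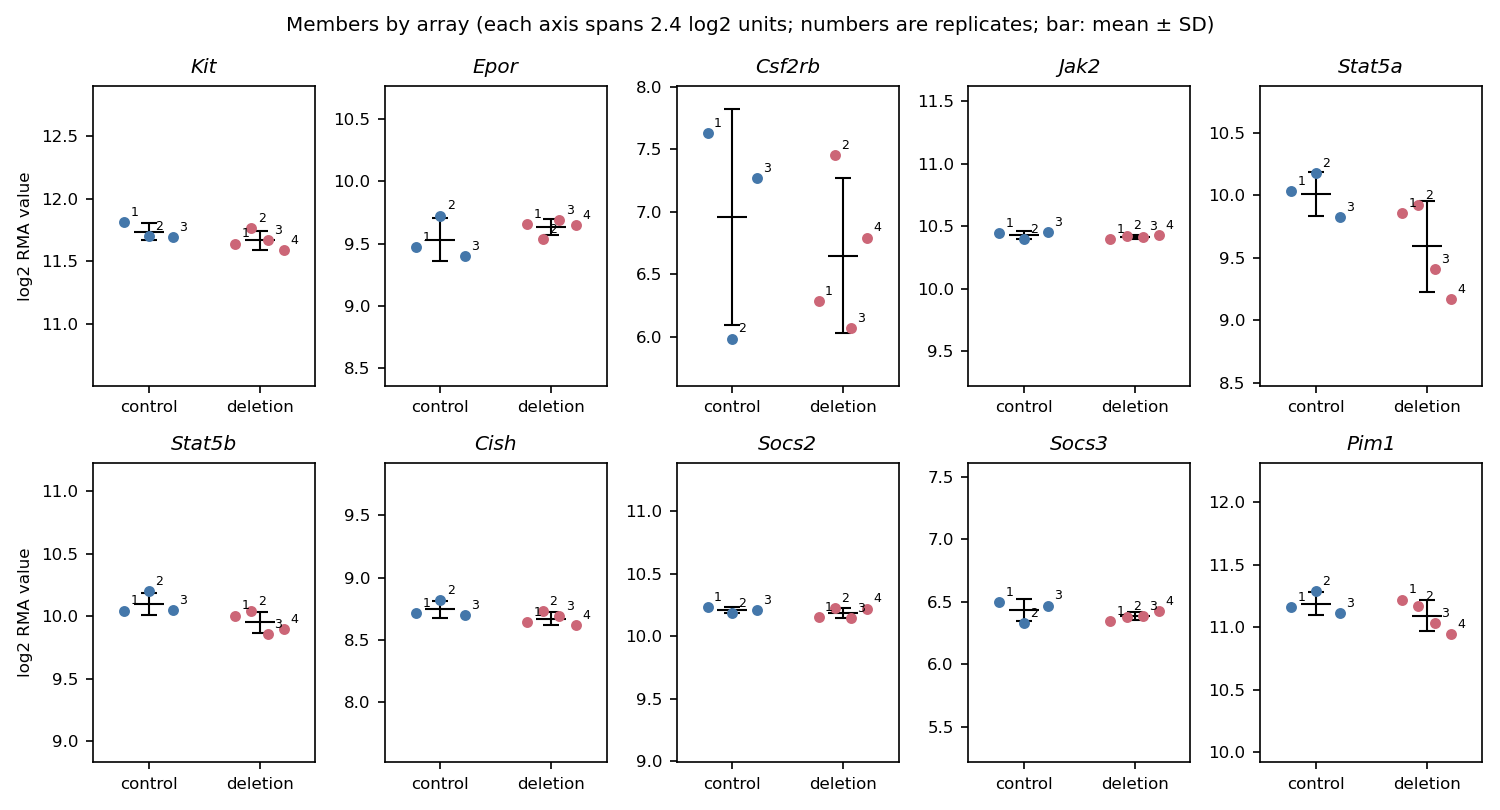
Log2 values of the 10 genes on each array (y axes, each spanning 2.4 log2 units) for control (blue) and deletion (red) arrays; numbers are replicates and bars give the mean ± SD. Jak2 and Socs2 varied little between arrays, Csf2rb ranged over 1.64, and deletion replicates 3 and 4 were the lowest for Stat5a, Stat5b and Pim1.

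Kit encodes the receptor for stem cell factor. It read 11.82, 11.70 and 11.69 on control replicates 1 to 3 and 11.64, 11.77, 11.67 and 11.59 on deletion replicates 1 to 4. The groups overlapped, since deletion replicate 2 lay above control replicates 2 and 3. The means were 11.74 ± 0.07 (SD, n = 3) and 11.67 ± 0.07 (SD, n = 4), and the difference was -0.07 (SE 0.07, 95% interval -0.23 to 0.09, limma p 0.353). On the linear scale the interval runs from -14.8% to 6.58%. It rests on the spread between these arrays, and spread between clones may not be covered.

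Epor encodes the erythropoietin receptor and was the only member with a higher deletion mean. Its control arrays read 9.47, 9.72 and 9.40 and its deletion arrays 9.66, 9.54, 9.69 and 9.65. Control replicate 2 was the highest array of all 7, and the other control arrays were the lowest. The means were 9.53 ± 0.17 (SD, n = 3) and 9.63 ± 0.07 (SD, n = 4), with a difference of 0.10 (SE 0.09, 95% interval -0.11 to 0.31, limma p 0.293). Without control replicate 2 the difference was 0.20 and without control replicate 3 it was 0.03, with an adjusted limma p of 0.938 or more in all alternatives.

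The promoter of Epor is known for a GATA site and an Sp1 site, and this line lacks functional GATA1, so the sequence before the start is shown. It covers the 60 bases up to the annotated start, chr9:21963577-21963636 on the minus strand of GRCm38.p6 in RefSeq, with matches to TTATCT, the reverse complement of AGATAA, and to CCGCCC in capitals.
Epor: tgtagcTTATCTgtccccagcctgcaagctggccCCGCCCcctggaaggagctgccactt
Over both strands, AGATAA was found in 11.2% and CCGCCC in 35.7% of all 32851 promoter windows of 300 bases, which run from 250 bases before a start to 50 after it. A match is a run of letters and not a measured binding site.

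Csf2rb encodes the common beta chain shared by the receptors for interleukin 3, interleukin 5 and GM-CSF, which also signals through JAK2 and STAT5. Among the 10 genes it had the widest spread. Control arrays read 7.63, 5.99 and 7.27, and deletion arrays 6.28, 7.46, 6.07 and 6.79. Control replicate 2 was the lowest array of all, and deletion replicate 2 was second only to control replicate 1. The pooled SD within groups was 0.73, at the percentile 99.8 of all genes. The difference was -0.31 (SE 0.43, 95% interval -1.29 to 0.67, limma p 0.491). Single arrays set its direction, with 0.02 without control replicate 1 and -0.80 without control replicate 2.

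Csf2rb2, the neighbouring paralog that encodes the beta chain specific to interleukin 3 in mice, read 8.71, 6.73 and 7.46 on control and 6.66, 7.79, 6.68 and 6.02 on deletion arrays. Its difference was -0.85 (SE 0.50, limma p 0.128). The transcripts of these paralogs are near-identical over long stretches, so their probes may share signal and the values of both are uncertain. For both genes the array with the highest value among controls was replicate 1 and among deletion arrays replicate 2.

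Mast cells also use Kit and the beta chain, and mast cell markers varied between arrays in part as Csf2rb did. The summed level of the 12 measured markers, as log2 of summed linear values, ranged from 10.4 to 12.5 in the control group and from 10.8 to 12.1 in the deletion group. It was lowest on control replicate 2, the array lowest for Csf2rb, and highest among deletion arrays on replicate 2, the deletion array highest for Csf2rb. Deletion replicate 4 broke the likeness, with the lowest summed level among deletion arrays and the next highest Csf2rb value. Of the 12 markers, 3 lay above the median gene level. Cpa3, a mast cell protease gene, read 9.53 on control replicate 2, 11.97 and 11.95 on the other control arrays, and 9.998, 11.48, 10.46 and 9.88 on deletion replicates 1 to 4. As the brightest marker it weighs most in the sum. The other markers above the median level, Ms4a2 and Rgs13, were also lowest among control arrays on replicate 2, at 7.55 and 7.31, but highest among deletion arrays on replicate 1, at 10.05 and 8.49. The part of these transcripts in the Csf2rb values was not tested. For Kit, control replicates 2 and 3 read 11.70 and 11.69 although they held the lowest and the highest summed marker level, while among deletion arrays both Kit and the markers were highest on replicate 2 and lowest on replicate 4. The part of mast cell transcripts in the Kit values was likewise not tested.

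**Figure D2:**
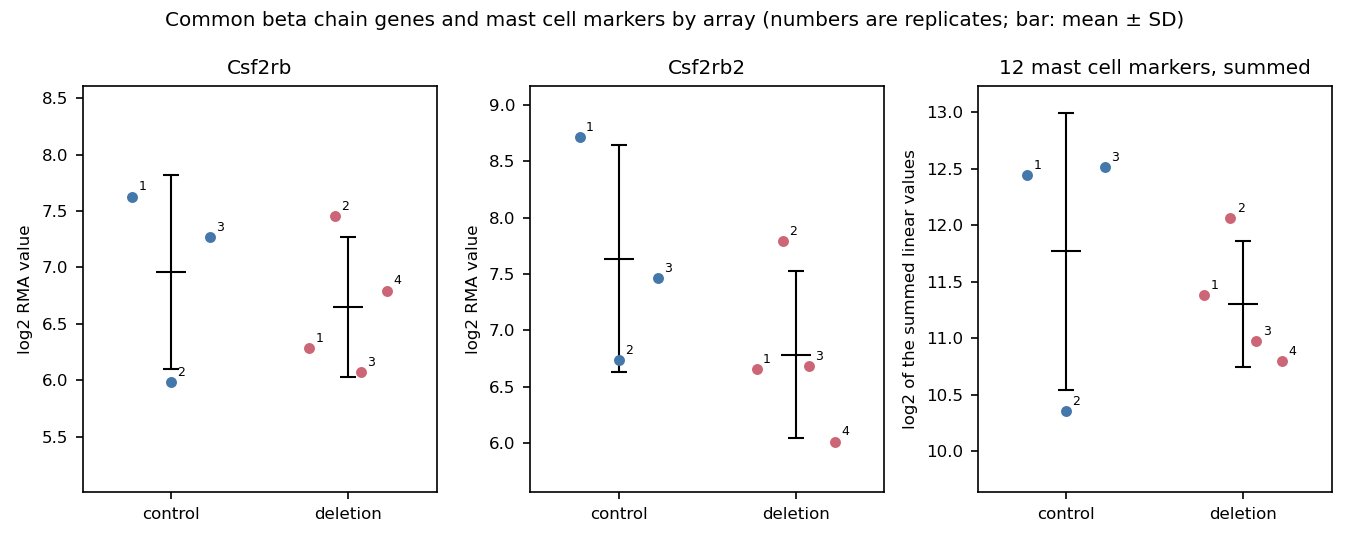
Csf2rb and Csf2rb2 (log2 values) and the summed level of 12 mast cell markers (log2 of summed linear values) on each array of the control (blue) and deletion (red) groups, with replicate numbers and mean ± SD. Control replicate 2 is the lowest control array in all 3 panels, and deletion replicate 2 is the highest deletion array.

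Jak2 encodes the kinase bound to both cytokine receptors. Control arrays read 10.44, 10.39 and 10.45 and deletion arrays 10.39, 10.42, 10.42 and 10.43. All 7 values lay within 0.06 of each other, and the groups overlapped. The pooled SD was 0.02, and 0.352% of genes had one this small. The difference was -0.015 (SE 0.06, 95% interval -0.15 to 0.12, limma p 0.807), or -9.71% to 8.54% on the linear scale.

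Stat5a encodes one of a pair of closely related STAT5 proteins and had the largest difference of the 10 genes. It read 10.03, 10.18 and 9.82 on control arrays and 9.86, 9.92, 9.41 and 9.17 on deletion arrays. Deletion replicates 3 and 4 lay below every control array, whereas deletion replicates 1 and 2 lay above control replicate 3. The means were 10.01 ± 0.18 (SD, n = 3) and 9.59 ± 0.36 (SD, n = 4). The difference was -0.42 (SE 0.19, 95% interval -0.85 to 0.00, limma p 0.0518), which is -25.3% on the linear scale with an interval from -44.4% to 0.284%. Without deletion replicate 4 it was -0.28, and without deletion replicate 2 it was -0.53. The adjusted limma p was 0.683 or more in all alternatives.

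Stat5b, which encodes the other STAT5 protein, had a smaller difference and groups that did not overlap. Control arrays read 10.04, 10.20 and 10.05 and deletion arrays 10.01, 10.04, 9.86 and 9.90. The gap between the highest deletion array, replicate 2, and the lowest control array, replicate 1, was under 0.01. The means were 10.10 ± 0.09 (SD, n = 3) and 9.95 ± 0.09 (SD, n = 4), with a difference of -0.15 (SE 0.08, 95% interval -0.32 to 0.03, limma p 0.0851). Without control replicate 2, the highest array, it was -0.10.

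Stat5a and Stat5b arose by duplication and lie side by side on chromosome 11. Their likeness extends before an annotated start of each, and the most alike 60 bases before those starts are shown with equal bases in capitals. The Stat5a stretch is chr11:100860412-100860471 on the plus strand and the Stat5b stretch chr11:100822574-100822633 on the minus strand, both from RefSeq on GRCm38.p6. Each gene has another annotated start as well.
Stat5a: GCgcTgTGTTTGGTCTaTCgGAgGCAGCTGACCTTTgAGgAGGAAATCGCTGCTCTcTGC
Stat5b: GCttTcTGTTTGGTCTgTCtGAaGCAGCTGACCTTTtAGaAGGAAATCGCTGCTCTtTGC
In this alignment without gaps, 51 of 60 bases were equal, and no other gene pair was compared. Whether this likeness bears on the levels of the genes was not tested. Which start was in use in these cells was not measured. As the transcripts are alike too, their probes may share signal.

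Stat3, which encodes the acute-phase and interleukin 6 factor, is the next gene on the other side of Stat5a and showed a like pattern over the arrays. It read 10.22, 10.39 and 10.11 on control and 9.93, 10.15, 9.62 and 9.56 on deletion arrays. Its difference was -0.42 (SE 0.15, 95% interval -0.76 to -0.08, unadjusted limma p 0.0200, adjusted p 0.999). For Stat5a, Stat5b and Stat3 alike, deletion replicates 3 and 4 were the lowest arrays and control replicate 2 the highest. The 5 measured protein-coding genes on each side of this row in the order of GRCm38.p6, looked up after the values were seen, had differences between -0.12 and 0.13. Of these 10 neighbours 6 were lower, 0 had an unadjusted limma p under 0.05 and 1, Rab5c, had groups that did not overlap, at -0.12 (SE 0.07). Over all genes these shares were 47.8%, 4.61% and 5.19%. Kcnh4, Hcrt and Hsd17b1 lay below the median gene level of 5.72, where a background level may hide a difference. Whether the lower values were confined to the STAT genes of this row was not tested.

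**Figure D3:**
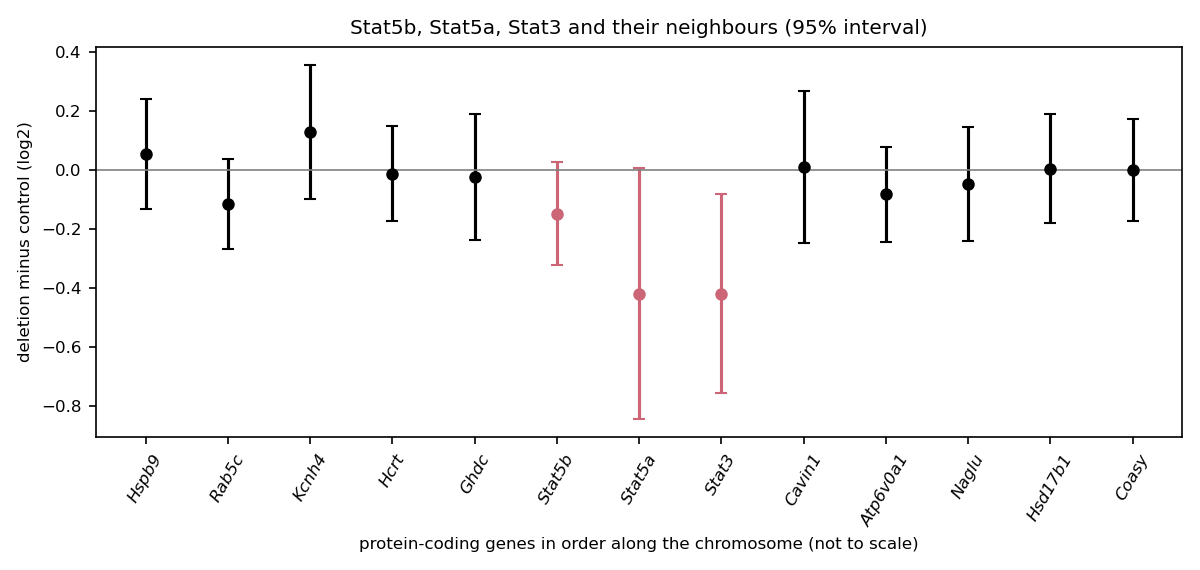
Difference between deletion and control arrays (log2, with 95% interval) for Stat5b, Stat5a and Stat3 (red) and the 5 protein-coding genes on each side (black), in their order along chromosome 11 and not to scale. The intervals of the 10 neighbours all include 0, as do those of Stat5a and Stat5b, and that of Stat3 runs from -0.76 to -0.08.

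The JAK and STAT genes were described from a list of 11, of which 9 were measured, the members Jak2, Stat5a and Stat5b among them. The deletion mean was lower for 8 of the 9, these members included, against 47.8% of all genes. The median was -0.15, the value of Stat5b, and 0 passed in limma over all genes. At an unadjusted p under 0.05 there were 2, Stat6 and Stat3, or 22.2% of this short list against 4.61% of all genes. Stat6, the factor of interleukin 4 signalling, read 10.27, 10.10 and 10.31 on control and 9.87, 10.07, 10.01 and 9.71 on deletion arrays. Its groups did not overlap, and the difference was -0.31 (SE 0.10, limma p 0.0147, adjusted p 0.999). Stat2, a partner in interferon signalling, differed by -0.24 (SE 0.12). The kinase genes lay near 0, with Jak1 at -0.05 (SE 0.06) and Tyk2 at -0.05 (SE 0.08), beside Jak2. Stat4 averaged 3.55 on control arrays, where a background level may hide a difference, and differed by 0.03 (SE 0.08).

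**Figure D4:**
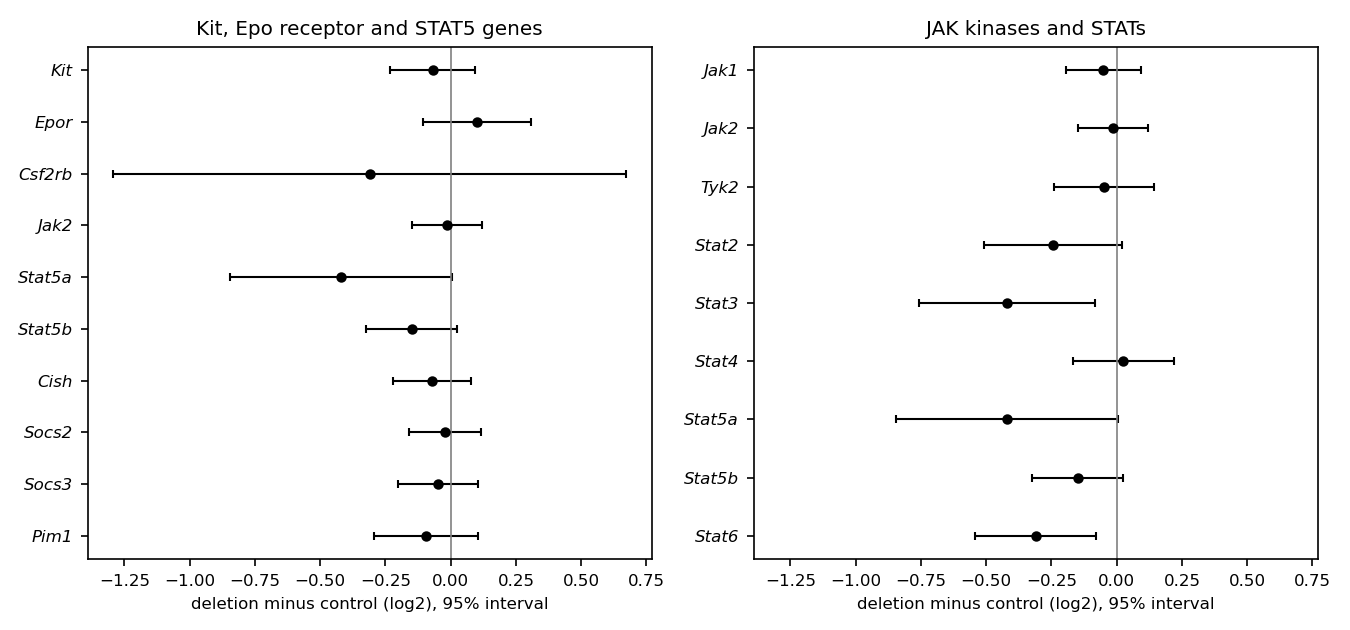
Difference between deletion and control arrays (x axis, log2, points with 95% interval) for the 10 signalling genes (left) and the 9 measured JAK and STAT genes (right). The points of the 10 genes run from -0.42 for Stat5a to 0.10 for Epor, and all 10 intervals include 0.

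Cish encodes an SH2 protein that binds the activated erythropoietin receptor and is among the best known direct targets of STAT5. The letters of a STAT5 site, TTCNNNGAA, which reads the same on both strands, occur in a pair at the annotated start of Cish and once before that of Socs3. Such a match was found in 8.3% of all 32851 promoter windows and in 2 of the 12 windows listed for 8 of the 10 genes. Both are shown with the matches in capitals, from RefSeq on GRCm38.p6. The Cish run is the first 20 bases from the start, chr9:107296659-107296678 on the plus strand, and the Socs3 run is chr11:117969501-117969530 on the minus strand.
Cish: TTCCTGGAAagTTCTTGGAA
Socs3: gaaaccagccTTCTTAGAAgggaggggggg
No match in the other windows says only that these letters are not in them.

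Cish read 8.71, 8.82 and 8.70 on control and 8.64, 8.73, 8.69 and 8.62 on deletion arrays. The groups overlapped, with control replicate 2 highest and deletion replicates 1 and 4 lowest. The difference was -0.07 (SE 0.07, 95% interval -0.22 to 0.08, limma p 0.299). Its dimmer probeset differed by -0.10 (SE 0.07, limma p 0.159), with groups that did not overlap by under 0.01, at 7.19 on both control replicate 1 and deletion replicate 1.

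Socs2, an inhibitor best known for restraining growth hormone signalling, read 10.24, 10.19 and 10.21 on control and 10.16, 10.23, 10.15 and 10.22 on deletion arrays. The arrays of both groups were interleaved, and the pooled SD was 0.04, at the percentile 2.23 of all genes. The difference was -0.02 (SE 0.06, 95% interval -0.16 to 0.11, limma p 0.707), and the other probeset gave -0.03 (SE 0.06).

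Socs3, which inhibits JAK kinases bound to receptors, read 6.50, 6.33 and 6.47 on control and 6.35, 6.38, 6.38 and 6.42 on deletion arrays. Control replicate 2 was the lowest array and the other control arrays were the highest, so that the deletion arrays lay between them. The difference was -0.05 (SE 0.07, 95% interval -0.20 to 0.10, limma p 0.489). The dimmer probeset, averaging 4.35, gave -0.01 (SE 0.11).

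Pim1 encodes a serine/threonine kinase that supports survival and growth, and its 2 probesets differed in direction. The brighter one read 11.16, 11.29 and 11.11 on control and 11.22, 11.17, 11.03 and 10.95 on deletion arrays. Deletion replicates 3 and 4, the lowest arrays for Stat5a and Stat5b, were also the lowest here, and control replicate 2 was again the highest. The difference was -0.10 (SE 0.09, 95% interval -0.30 to 0.10, limma p 0.307). The dimmer probeset averaged 5.26, below the median gene level of 5.72, against 11.13 for the brighter one. It read 5.14, 4.94 and 5.14 on control and 5.44, 5.49, 5.36 and 5.28 on deletion arrays. All 4 deletion arrays thus lay above all 3 control arrays for this probeset. The dimmer probeset differed by 0.32 (SE 0.08, 95% interval 0.13 to 0.51, unadjusted limma p 0.00477), which did not pass over all probesets at an adjusted p of 0.999. The sources used here do not place either probeset in the transcript. The mean of both, which weighs them alike, differed by 0.11.

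Further STAT5 target genes were taken from a list of 26, of which 25 were measured, the 4 above included. The deletion mean was lower for 17, or 68%, and higher for 8, against 47.8% lower over all genes. The median was -0.03, and 0 passed in limma over all genes. An unadjusted p under 0.05 was found for 4% of the 25, against 4.61% of all genes, and groups without overlap for 4%, against 5.19%. The only such gene was Tfrc, the transferrin receptor gene that supplies iron to erythroid cells. It read 11.95, 11.90 and 11.89 on control and 11.73, 11.70, 11.77 and 11.77 on deletion arrays, and the groups did not overlap. Its difference was -0.17 (SE 0.06, 95% interval -0.31 to -0.03, limma p 0.0199, adjusted p 0.999). The list's lowest value was -0.35 (SE 0.18), for Erfe, the erythroferrone gene induced by erythropoietin, and its highest 0.16 (SE 0.15), for Trib3. Bcl2l1, the Bcl-xL survival gene, differed by 0.02 (SE 0.10), Mcl1 by 0.00 and Pim2 by -0.13 (SE 0.08).

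Of 23 listed receptor and ligand genes 19 were measured, 12 lower and 7 higher, with a median of -0.06. The lower share was 63.2%, against 47.8% of all genes. An unadjusted p under 0.05 was found for 5.26% of the 19, against 4.61% of all genes, and groups without overlap for 5.26%, against 5.19%. The only such gene was Csf2ra, the GM-CSF receptor alpha chain gene that pairs with the common beta chain. It read 7.70, 7.65 and 7.71 on control and 7.56, 7.55, 7.41 and 7.42 on deletion arrays, without overlap, and differed by -0.21 (SE 0.07, limma p 0.0170, adjusted p 0.999). Il3ra, the interleukin 3 receptor alpha chain gene, differed by 0.05 (SE 0.07). Of the genes of both ligands, Kitl had a low value, at 4.34 on control arrays, and Epo, at 5.94, lay near the median gene level of 5.72. They differed by -0.18 (SE 0.12) and -0.14 (SE 0.09).

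The negative regulators of JAK and STAT signalling were all measured, 23 of 23, with 19 lower and 4 higher. Their differences ran from -0.10 for Dok2, an adaptor that dampens kinase signalling, to 0.05 for Cblb, a ubiquitin ligase gene, with a median of -0.05. In limma 0 passed and 0 had an unadjusted p under 0.05, where the smallest was 0.205, for Dok2. Of 36 adaptor, PI3K and Src kinase genes 29 were measured, 17 lower and 12 higher, with a median near 0 at -0.003. None passed and 0 had an unadjusted p under 0.05, with Btk, a Tec family kinase gene, at 0.11 (SE 0.07, limma p 0.133). Over all 102 measured genes of these lists, 70 or 68.6% had a lower deletion mean, and 4, all lower, or 3.92%, had an unadjusted limma p under 0.05. Over all genes 47.8% had a lower mean, 4.61% had an unadjusted p under 0.05 in either direction, and 2.37% were lower with such a p. The share of the lists with such a p was thus near that of all genes in either direction, and above it for lower means. The latter rests on 4 genes and was not tested. Of the 102 genes 83 lay above the median gene level, and no share was taken over genes of like level. The lists were chosen with earlier results of these data known. The deletion mean was also lower for 14 of 17 erythroid markers, or 82.4%, a list that shares Epor and Tfrc with these, and 2 of them, Add2 and Tfrc, had an unadjusted limma p under 0.05. It was lower for 2 of 10 stromal and endothelial markers.

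The genes most like Kit, Epor and Stat5a over the 7 arrays were sought among 11089 genes above the median level. For Kit they were Itgb7, Nbeal2 and Dpp9, with Pearson r of 0.976, 0.974 and 0.965 over the 7 arrays. For Epor they were Gemin2, Snord17 and Ctps, at 0.987, 0.976 and 0.975. For Stat5a they were Ralb, Clcn5 and Lgals1, at 0.987, 0.986 and 0.975, and the last of these, a galectin gene, differed by -0.64 (limma p 0.0779). With 7 arrays and this many genes, such values are a description of these arrays.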

How the data were processed

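Total RNA of 7 samples was hybridised to Mouse Gene 2.0 ST arrays, 3 control and 4 deletion. Per the submitters' processing notes, Affymetrix Expression Console was used with RMA, and the authors deposited its log2 values for each probeset. This method corrects background and forces all arrays onto one distribution, which can mask a shift shared by most genes, and it gives no detection call. The sources used here name no software version or genome build, and the log2 scale was inferred from the range, 1.87 to 14.0. Groups and replicate numbers came from the titles. Of 41345 probesets, 23521 had 1 gene symbol in the platform annotation and were tested with limma 3.58.1 in R 4.3.3 (lmFit, eBayes, two-sided, 95% intervals, Benjamini-Hochberg over all tested, threshold 0.05). The number of arrays limits precision. On simulated data with 200 of 23521 probesets changed, the fit recovered 48.4% of differences of 0.5 and 89.6% of 1. The simulation drew independent noise for each probeset and averaged 176.3 calls a run, against 2 in the data. With fewer calls the adjustment is stricter, so these shares may overstate what could be recovered here. Members and lists were chosen with earlier results of these data known. Named genes were the 10 members, Lockd, Cdkn1b, Csf2rb2, up to 3 members of each list with an unadjusted p under 0.05 (or the 1 with the smallest p), and the 3 genes most like Kit, Epor and the member with the largest difference. Others were chosen after their values were seen. Alternatives were leaving out each array, a filter on dim probesets, all probesets and eBayes with its trend and robust settings. Further alternatives were median centring, a replicate block and averaging a gene's probesets. Promoter windows came from RefSeq on GRCm38.p6 and matched 8 of the 10 genes by symbol.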

Additional observations from a re-analysis of the deposited data

Results flagged for a closer look

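Among 19 named genes tested for a single deletion array far from the others, Lockd stood out. Deletion replicate 3 read 4.17 and the other deletion arrays 5.09 to 5.15, a gap of 0.939 of the group's range, where chance puts about 1 in 20 groups past Dixon's limit for 4 values. The 10 signalling genes did not pass that limit, and groups of 3 were not tested.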

How the results depend on the processing

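Under all alternatives run, 0 of the 10 members and 0 of the listed pathway genes passed. Of 130 member differences under alternatives, 128 kept their direction. The others were Csf2rb, which ranged from -0.80 (without control replicate 2) to 0.0236 (without control replicate 1) as each array was left out, and Pim1, at 0.11 with the mean over its probesets. Small differences moved by over 1.5 times when 1 array was left out, as with Kit at -0.03 without control replicate 1, Cish at -0.04 and Pim1 at -0.04 without control replicate 2, and Socs3 between -0.10 and -0.02 as control replicate 2 or 1 was dropped. Over all probesets, 2 passed, and leaving out each array gave 0 to 2. That count was 0 with all 41345 probesets of the table tested, where more are adjusted for, and 0 with the replicate number as a block. By the numbers in the titles, deviations from the group mean on same-numbered arrays correlated at 0.02, 0.06 and -0.10. Over all pairs of a control and a deletion array the values ran from -0.17 to 0.17. Such deviations sum to 0 within each group, so these values cannot tell whether arrays were paired. The descriptions number the deletion arrays differently, and the arrays they match correlated at -0.17 (control replicate 2 with deletion replicate 1) and -0.10 (control replicate 3 with deletion replicate 2). The block used the titles. Under the replicate block, in which deletion replicate 4 has no partner and does not enter the difference, Stat5a differed by -0.28 (unadjusted limma p 0.0218, adjusted p 1.00) and Kit by -0.04, and 890 probesets had an unadjusted p under 0.05, against 1091 without it. Stat5a had an unadjusted p under 0.05 also without control replicate 3 or deletion replicate 1 or 2 and with median centring. Stat5b had one with the trend and robust settings of eBayes, and Epor without control replicate 2. Dim probesets may hide differences.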

Other observations

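Some signalling genes that were not called varied widely between arrays of the same group. Gab1, which encodes a docking protein below Kit and the erythropoietin receptor, read 7.68, 8.80 and 5.998 on control replicates 1 to 3 and between 6.85 and 7.13 on deletion arrays. Pik3cd, the gene of a catalytic PI3K subunit of blood cells, read 8.81, 8.49 and 6.76 on control and 8.70, 6.82, 8.63 and 6.16 on deletion arrays. Their differences were -0.52 (SE 0.53) and -0.44 (SE 0.72). Both genes were chosen after their values were seen.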
